A study of Mus musculus with 8 samples.

Results

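The comparison described here is that of male (XY) against female (XX) mouse liver, over the autosomal genes. Its members were chosen by position and level: of 49671 gene IDs in the table of counts, 13117 reached 1 CPM (counts scaled to the size of the library) in at least 2 libraries, and 12702 of these lie on an autosome. There were 8 RNA-seq libraries of liver, 2 for each combination of sex and genotype, and whether each came from a separate animal is not stated. The mice were post weaning, with no exact age given, and their strain is C57BL/6 in the labels and C57BL/6N in the study's methods. NT-KO mice are homozygous for a CRISPR/Cas9 deletion in Lbr (lamin B receptor, a protein of the inner nuclear membrane that is also a sterol reductase). The allele takes away the first translation start and with it the N-terminal domains, comes from 1 male founder and was backcrossed to C57BL/6N. WT mice carry the intact gene, so 4 male and 4 female libraries were compared with genotype as a term of the model. The p-values and the SD therefore measure the spread between these libraries only, which may be technical.

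The mouse liver is known for one of the strongest sex differences of any non-reproductive organ. The pituitary of male rodents releases growth hormone in separate pulses, whereas in females the hormone is present more evenly. The hormone acts on the hepatocyte through its receptor, the kinase Jak2 and the transcription factor STAT5. Sex-dependent repressors take part as well, such as Bcl6, which represses STAT5 targets, in males and Cux2 in females. The genes downstream encode urinary pheromone carriers, cytochromes P450, sulfotransferases, steroid dehydrogenases and plasma proteins.

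The libraries held between 45020377 and 64396291 counts, so that 1 count corresponded to 0.0155 to 0.0222 CPM, and the tested genes held 91.8 to 92.9% of all counts. Counts of the Y-linked Uty, Kdm5d, Eif2s3y and Ddx3y lay between 585 and 3082 in the male and between 0 and 10 in the female libraries, and Xist had 41 to 136 counts in males and 50913 to 59845 in females. Lbr itself had 277 to 918 counts, but a count over the whole gene does not single out the deleted part and so does not check the genotype. TMM factors (edgeR's correction of library size for a few abundant genes) were 0.921 to 0.986 in the male and 1.03 to 1.05 in the female libraries. Hepatocyte markers (Alb, Apoa1, Ttr, Tat, Cps1) summed to 68435 to 104480 CPM in males and 79528 to 93181 CPM in females, and none of the 5 passed the test described below. In the labels the male libraries are numbered before the female ones, so a run order and sex cannot be told apart.

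Sex was the main axis of variation. The first principal component of the log2 CPM values held 58.1% of the variance, with the male libraries at 33.3 to 51.7 and the female libraries at -46.7 to -38.0, and the second held 11.7%. Counting a gene as a differentially expressed gene (DEG) at a false discovery rate (FDR) of at most 0.05 in edgeR's quasi-likelihood test and an absolute log2 difference over 1, 220 autosomal genes were higher in males (1.73% of those tested) and 255 were higher in females (2.01%). By the FDR alone there were 391 (3.08%) and 436 (3.43%). Among the DEGs, the 4 libraries of one sex lay wholly above those of the other for 207 of the 220 male-higher and 246 of the 255 female-higher genes. Over all autosomal genes this held for 2041 (16.1%). The median log2 difference was 1.81 in the male-higher and -1.66 in the female-higher DEGs, against 0.01 over all autosomal genes. Differences over 4 on the log2 scale, that is over 16-fold, were seen in 49 male-higher and 43 female-higher DEGs. The male-higher DEGs made up 12.7% of the normalized counts in males and 2.56% in females, and the female-higher DEGs 0.404% in males and 2.14% in females. Of the male-higher DEGs, 179 were protein-coding, 23 pseudogenes and 10 lincRNA or antisense genes. The female-higher DEGs comprised 229 protein-coding genes, 10 pseudogenes and 12 lincRNA or antisense genes. Scaling by library size in place of TMM moved the median difference of all genes from 0.00 to -0.13 on the log2 scale and gave 194 male-higher and 360 female-higher DEGs, so that male-higher genes were 35.0% of all DEGs and not 46.3%.

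**Figure D1:**
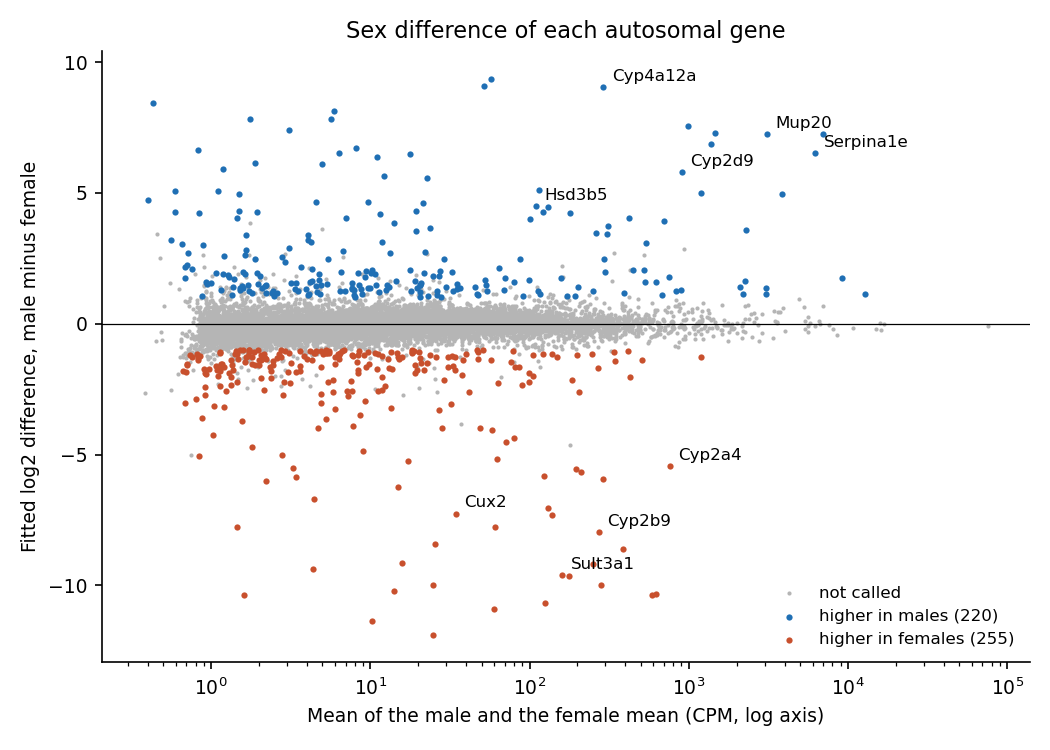
Fitted log2 difference (male minus female) of each of the 12702 autosomal genes against the mean of its male and female levels in CPM on a log axis; blue points are the 220 male-higher DEGs, red points the 255 female-higher DEGs and grey points all other genes. DEGs of both directions reach differences beyond 8 on the log2 scale, and Mup20 and Serpina1e are among the most abundant male-higher ones.

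The genes that mark the sex of a mouse liver differed in the direction of the label in every library. Values are given below in CPM and in the order WT 1, WT 2, NT-KO 1 and NT-KO 2 of a sex, and errors of levels are SD with n = 4. Cyp2d9 (chr15:82433437-82456845, GRCm38), a male-specific steroid hydroxylase, stood at 2008, 1499.8, 1913 and 1664 in males and at 33.2, 48.1, 20.2 and 30.5 in females (log2 difference 5.79 ± 0.27, FDR 8.68e-06; errors of differences are standard errors). Mup20 (chr4:62050234-62054158), which encodes the male pheromone darcin, stood at 8919, 6313, 6747 and 2694 in males and at 55.1, 40.8, 29.2 and 35.6 in females (log2 difference 7.25 ± 0.36, FDR 9.57e-06). Every male value of each of these genes lay far above every female value, and male NT-KO 2 was the lowest male library for Mup20. Hsd3b5 (chr3:98618634-98630252), a steroid dehydrogenase, was at 232, 189.6, 265 and 152 in males and at 14.9, 1.48, 4.03 and 16.8 in females (log2 difference 4.51 ± 0.71, FDR 0.00663), with the female libraries spread over more than 10-fold. Cyp2b9 (chr7:26173411-26210661), a female-specific P450, was at 0.0764, 2.27, 0.11 and 7.68 in males and at 383, 599, 503 and 686 in females (log2 difference -7.95 ± 1.23, FDR 0.0061). Sult3a1 (chr10:33857721-33879532), a sulfotransferase, was at 0.0191, 1.25, 0.0881 and 0.0413 in males and at 147, 79.6, 752 and 301 in females (log2 difference -9.59 ± 1.26, FDR 0.00247). The female libraries did not overlap the male ones for either gene. In male WT 1 both female markers were near 3 counts, and so was Sult3a1 in male NT-KO 1 and male NT-KO 2. Over the 8 libraries 3 counts are 0.0466 to 0.0666 CPM of the library totals, without TMM. The size of the Sult3a1 difference is therefore not firm. Male WT 2 was the highest male library for Sult3a1 and male NT-KO 2 for Cyp2b9.

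**Figure D2:**
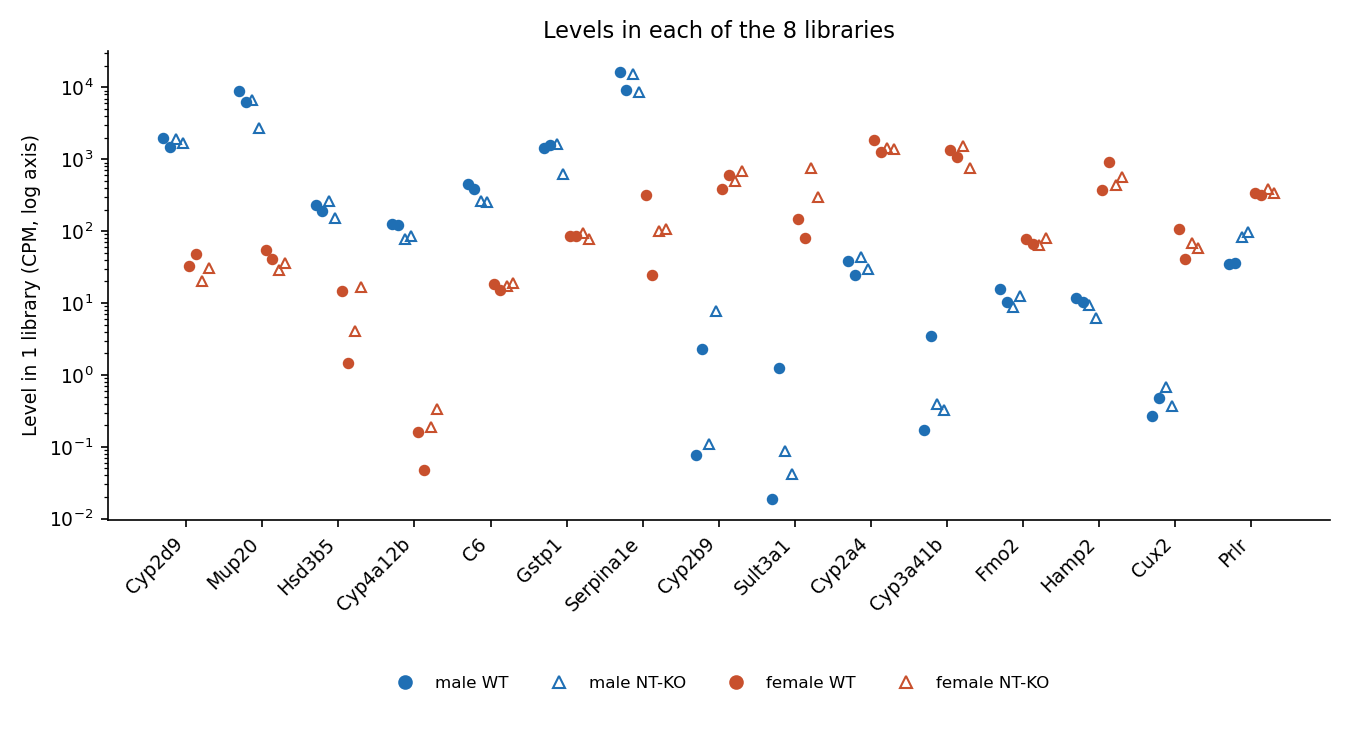
Level (CPM, log axis) of 15 genes in each of the 8 libraries; blue marks male and red female livers, filled circles WT and open triangles NT-KO. The first 7 genes are higher in males and the last 8 in females, without overlap between the sexes; Sult3a1 runs from 0.0191 to 1.25 CPM in males and from 79.6 to 752 CPM in females.

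The 250 bases before the annotated start of a gene were taken from RefSeq on GRCm38.p6 for 9403 of the autosomal genes and for 112 of the 152 genes chosen by the naming rule. A STAT5 motif (TTCNNNGAA, read on both strands) was in 6.1% of these windows, in 8.03% of those of male-higher DEGs (11 of 137), in 6.86% of those of female-higher DEGs (12 of 175) and in 6.06% of those of genes that were not DEGs. An HNF4A motif (CAAAGTCCA, both strands) was in 0.489% of all windows, in 2 of 137 for male-higher DEGs (1.46%), in 6 of 175 for female-higher DEGs (3.43%) and in 0.418% of those of other genes. These shares are a description of the letters in the windows, and related genes are counted separately in them. The female-higher windows with the HNF4A motif included Cyp2c40, Cyp2c68, Cyp2c69, Cyp3a41a and Cyp3a41b, and the male-higher ones Cyp2c67. Cyp3a41a and Cyp3a41b held the same base at 249 of 250 positions (99.6%). The HNF4A shares thus count copied sequence more than once, and no enrichment was tested. Shown are a female-higher and a male-higher gene with the STAT5 motif, a pair of neighbouring Cyp2c genes that differ in direction and share the HNF4A motif, and a female-higher Cyp3a gene with the same motif. Capitals mark the motif. The windows are chr10:33857472-33857721 on the plus strand, chr4:104876399-104876648 on the minus strand, chr19:39812815-39813064 on the minus strand, chr19:39649043-39649292 on the minus strand and chr5:145720137-145720386 on the minus strand.
Sult3a1: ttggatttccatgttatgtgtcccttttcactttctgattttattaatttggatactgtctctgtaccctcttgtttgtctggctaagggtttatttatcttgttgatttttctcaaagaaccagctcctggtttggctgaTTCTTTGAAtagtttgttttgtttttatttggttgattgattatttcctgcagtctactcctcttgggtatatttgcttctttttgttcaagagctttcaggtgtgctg
C8a: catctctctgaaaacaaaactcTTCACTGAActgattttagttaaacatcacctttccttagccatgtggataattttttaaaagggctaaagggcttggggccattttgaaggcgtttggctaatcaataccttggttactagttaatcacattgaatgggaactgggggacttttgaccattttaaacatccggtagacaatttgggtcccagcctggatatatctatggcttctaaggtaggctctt
Cyp2c40: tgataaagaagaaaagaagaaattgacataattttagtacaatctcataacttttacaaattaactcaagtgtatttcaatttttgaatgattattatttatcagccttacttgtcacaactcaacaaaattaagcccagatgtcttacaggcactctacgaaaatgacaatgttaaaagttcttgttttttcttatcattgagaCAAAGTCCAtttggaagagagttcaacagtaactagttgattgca
Cyp2c67: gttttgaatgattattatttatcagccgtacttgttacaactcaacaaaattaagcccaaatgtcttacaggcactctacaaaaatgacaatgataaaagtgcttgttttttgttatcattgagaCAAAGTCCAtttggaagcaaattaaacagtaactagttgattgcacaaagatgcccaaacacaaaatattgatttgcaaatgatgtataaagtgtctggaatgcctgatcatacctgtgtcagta
Cyp3a41a: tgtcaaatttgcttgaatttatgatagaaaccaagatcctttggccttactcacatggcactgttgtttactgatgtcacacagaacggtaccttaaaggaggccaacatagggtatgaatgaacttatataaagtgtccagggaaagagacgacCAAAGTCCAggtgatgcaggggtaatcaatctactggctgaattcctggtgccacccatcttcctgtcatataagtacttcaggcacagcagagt
The motif begins 109 bases before the annotated start in Sult3a1, 228 in C8a, 45 in Cyp2c40, 125 in Cyp2c67 and 95 in Cyp3a41a. Lined up on the motif without gaps, the windows of Cyp2c40 (female-higher) and Cyp2c67 (male-higher) held the same base at 158 of 170 positions (92.9%). The female-higher Cyp2c69 and Cyp2c67 held the same base at 186 of 200 positions (93.0%), and the female-higher Cyp2c68 and Cyp2c67 at 148 of 202 (73.3%). The annotated start of Cyp2c67 lies further from the motif, so the 2 genes differ in where transcription is placed by the annotation as well.

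Among the cytochromes P450 and steroid enzymes with the smallest FDR in males, Cyp4a12b, a fatty acid hydroxylase, stood at 127, 121, 78.7 and 85.5 CPM in males and at 0.158, 0.0477, 0.19 and 0.331 CPM in females (log2 difference 9.10 ± 0.41, FDR 7.39e-06). Its neighbour Cyp4a12a was at 308, 852, 543 and 619.5 CPM in males and at 1.11, 0.223, 0.875 and 2.55 CPM in females (log2 difference 9.05 ± 0.72, FDR 0.000136). Of the 50-base stretches of these genes 48.9% and 49.4% also occur in another gene, so reads may be split between them. In both, every male library lay over 16-fold above every female library. Of 7 Cyp2d genes tested 3 were higher in males, namely Cyp2d9, Cyp2d12 (18.5 ± 4.06 CPM in males and 0.741 ± 0.195 CPM in females) and Cyp2d11 (1.44, FDR 0.00899), and none was higher in females. Cyp7b1, which hydroxylates oxysterols and steroids in the alternative route of bile acid synthesis, was at 674, 817, 580.2 and 260.2 CPM in males and at 40.9, 32.8, 37.1 and 57.6 CPM in females (log2 difference 3.74 ± 0.36, FDR 0.000422). It was 1 of only 2 DEGs among 24 bile acid genes, with Scp2, a sterol carrier (1.15, FDR 0.00268); Cyp7a1, the rate-limiting enzyme of the classic route, had a log2 difference of -0.20 (FDR 0.729). Cyp21a1, the steroid 21-hydroxylase known from the adrenal, was at 6.75 to 15.3 CPM in males and at 0.0954 to 0.228 CPM in females. Hsd3b2 was higher in males as well (1.77, FDR 0.000522), as was Elovl3, an elongase of long-chain fatty acids (35.4 ± 9.92 CPM in males, 3.01 ± 0.293 CPM in females).

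The major urinary proteins, lipocalins that the liver secretes and that carry volatile pheromones in urine, were the most abundant male-higher family. Of 22 Mup genes tested 18 were higher in males, none was higher in females, and the log2 differences of all 22 were above 0, from 1.13 to 7.28 with a median of 3.80. Their summed level was 59170, 73386, 58770 and 32004 CPM in males and 7962, 6174, 5832 and 7350.1 CPM in females, that is 3.16 to 6.93% of all counts in males and 0.612 to 0.836% in females. Male NT-KO 2 was the lowest male library, and still stood above every female library. Mup7 stood at 17952, 16432, 13639 and 7515 CPM in males and 99.3, 47.8, 61.3 and 150.1 CPM in females (log2 difference 7.26 ± 0.51, FDR 7.2e-05). Mup21, less abundant, was at 251, 411, 99.7 and 138 CPM in males and at 9.03, 4.96, 5.02 and 4.42 CPM in females (log2 difference 5.11 ± 0.32, FDR 3.98e-05). The pseudogene Mup-ps19 was at 1974 ± 930.0 CPM in males and 10.3 ± 2.69 CPM in females. Nearly identical copies make the split between single Mup genes uncertain: all of the 50-base stretches of Mup15, 89.8% of those of Mup-ps19, 87.5% of those of Mup8 and 86.7% of those of Mup7 occur in another gene. The summed level does not depend on the split among the 22 genes. It leaves out pseudogenes such as Mup-ps19, and how reads with several matches were treated is not given, so the sum is not free of this uncertainty.

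The terminal complement components, which assemble the membrane attack complex, were higher in males. C6 was at 459, 389, 261 and 252 CPM in males and at 18.3, 15.1, 17.1 and 18.7 CPM in females (log2 difference 4.25 ± 0.21, FDR 9.27e-06). C8a was at 936, 1229, 909.6 and 770.1 CPM in males and at 149, 79.3, 104 and 117 CPM in females (log2 difference 3.09 ± 0.23, FDR 8.9e-05). C8b (2.49, FDR 0.00018), C9 (2.04, FDR 0.00142) and Hc, which encodes C5 (1.29, FDR 0.00268), were DEGs of the same direction. C8g, the gamma chain of C8, had a log2 difference of -0.11 (FDR 0.559). Of 39 complement and coagulation genes tested 7 passed the FDR in males and 2 in females, the latter being C1qb (-0.55) and Mbl2 (-0.72), and the median of the list was 0.24. C4a, related to complement C4 and known as the sex-limited protein Slp, is annotated here without a coding sequence and was at 480.4 ± 140.2 CPM in males and 43.3 ± 9.66 CPM in females (log2 difference 3.47 ± 0.22, FDR 4.21e-05), and 30.6% of its stretches occur in another gene. Its neighbour C4b, the complement C4 gene, had a log2 difference of 0.49 (FDR 0.139). Among the serine protease inhibitors of the Serpina family 5 of 17 passed the FDR in males and 1 in females. Serpina1e, an alpha-1-antitrypsin gene, was at 16360, 9109.9, 15306 and 8521 CPM in males and at 322, 24.2, 100.3 and 108 CPM in females (log2 difference 6.52 ± 0.78, FDR 0.00154). Its relatives Serpina1b (0.02) and Serpina1d (0.04) did not pass the FDR, whereas Serpina6, corticosteroid-binding globulin, was higher in females (-1.40, FDR 0.00972).

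Further genes of high rank in males have roles outside these families. Gstp1, a glutathione transferase of the pi class, was at 1454, 1578, 1609.5 and 618 CPM in males and at 84.5, 85.5, 93.3 and 77.7 CPM in females (log2 difference 3.93 ± 0.30, FDR 0.000115), and Gstp2 followed (4.29, FDR 0.000251). Lama3, a laminin chain, was at 14.6, 13.95, 10.7 and 13.9 CPM in males and at 0.673, 0.7, 0.875 and 0.927 CPM in females (log2 difference 4.06 ± 0.18, FDR 7.39e-06). Capn8, a calpain protease, had 16.2 ± 3.54 CPM in males and 0.153 ± 0.0811 CPM in females. Nat8f5 (5.65, FDR 3.78e-05) and Etfbkmt, a lysine methyltransferase acting on an electron transfer flavoprotein (2.14, FDR 3.5e-05), completed the 10 male-higher protein-coding genes with the smallest FDR. Gtpbp4-ps1, a pseudogene on chromosome 7, was at 6.75 to 17.01 CPM in males and at 0 to 0.0828 CPM in females. Ccne1, cyclin E1, was higher in males (4.78 ± 1.82 CPM against 1.56 ± 0.579 CPM), and Ccnd1, cyclin D1, was higher in females (14.7 ± 3.19 CPM in males against 46.4 ± 8.35 CPM). Of 17 cell cycle genes these and Mcm10 (1.66, FDR 0.035, not a DEG without any one of male NT-KO 2, female WT 1, female WT 2 and female NT-KO 1, at 1.56 to 1.71) were the DEGs.

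On the female side the P450 genes of the Cyp2a, Cyp2b and Cyp2g group were higher together over 1 stretch of chromosome 7. Of 8 genes tested 7 were higher in females and none was higher in males. Cyp2a4, a steroid 15-alpha-hydroxylase, was at 38.1, 24.96, 43.2 and 29.8 CPM in males and at 1828, 1273, 1428 and 1402 CPM in females (log2 difference -5.45 ± 0.24, FDR 7.39e-06). Cyp2b13 was at 0.0191, 0.997, 0.0441 and 0.764 CPM in males and at 268, 507, 339.6 and 307 CPM in females (log2 difference -9.64 ± 0.87, FDR 0.000287). Cyp2a22 (-4.52, FDR 5.66e-05), Cyp2b10 (-2.93, FDR 0.00876), Cyp2g1 (-3.47, FDR 0.00139) and Cyp2a5 (-1.27, FDR 0.00883) moved the same way, and Cyp2a12 (-0.49, FDR 0.0653) did not pass. Of the stretches of Cyp2a4 and Cyp2a5 38.8% and 37% occur in another gene. Of 8 Cyp3a genes tested 4 were higher in females. Cyp3a41b was at 0.172, 3.48, 0.397 and 0.33 CPM in males and at 1328, 1092, 1529 and 759 CPM in females (log2 difference -10.37 ± 0.99, FDR 0.000412), and it is so close to Cyp3a41a (98.6% of stretches shared, -9.18, FDR 0.000326) that their counts cannot be told apart. Cyp3a44 was at 2.27, 2.56, 1.12 and 1.18 CPM in males and at 296, 128, 436 and 248 CPM in females, whereas Cyp3a11, the main Cyp3a gene of adult liver of both sexes, had a log2 difference of 0.51 (FDR 0.229).

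The Cyp2c genes, which metabolize drugs, arachidonic acid and steroids, went both ways. Of 13 tested 5 were higher in females and 1 was higher in males. Cyp2c69 was at 0.554, 3.42, 1.17 and 2.77 CPM in males and at 907, 535, 1151 and 510.0 CPM in females (log2 difference -8.62 ± 0.68, FDR 0.000135). Cyp2c40 was at 8.45, 6.39, 5.49 and 12.1 CPM in males and at 406, 361, 521 and 371 CPM in females (log2 difference -5.68 ± 0.29, FDR 1.07e-05). Cyp2c67 lies in the same stretch of chromosome 19, stands on a list of female-biased genes and was higher in males, at 283, 284, 280.2 and 199 CPM against 114, 121, 151 and 116 CPM (log2 difference 1.06 ± 0.16, FDR 0.00601). Without female WT 1 its log2 difference was 0.995, just under the fold required, and with library size only it was 0.92. Of its stretches 52.8% occur in another gene, and of those of Cyp2c40 and Cyp2c69 60.3% and 54.3%. Cyp2c38 was higher in females as well (-4.35, FDR 0.000104). Cyp2c37 (-2.05, FDR 0.022) and Cyp2c68 (-1.70, FDR 0.0274) were not DEGs without any one of female WT 1, female WT 2 or female NT-KO 1, at -2.10 to -1.90 and -1.72 to -1.46, and Cyp2c68 also without male WT 2 (-1.49).

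Sulfotransferases, which conjugate steroids and bile acids with sulfate, held some of the widest gaps between the sexes. Of 15 Sult genes tested 11 were higher in females. Sult2a1 was at 0.0382, 0.613, 0.022 and 0.0206 CPM in males and at 123, 349, 436 and 92.6 CPM in females (log2 difference -10.68 ± 1.02, FDR 0.000412). Sult2a2 had counts in male WT 2 alone among the males (0.281 CPM) and 64.3 to 185 CPM in females. Sult2a6 followed the same pattern, with 0.102 CPM in male WT 2, none in the other males and 20, 42.2, 36.8 and 13.99 CPM in females. Sult2a5 had 2 counts in all 4 male libraries together, both in male WT 2, and 31.9, 87.2, 57.6 and 22.5 CPM in females, a ratio of 4695 with a 95% counting interval of 1300 to 38775. For Sult2a4, also with 2 male counts, the ratio was 810 (224 to 6695). These intervals cover counting error only. In male WT 2 each of these genes was higher than in any other male library, at levels below 1 CPM. The gene Sult2a8 went the other way, with 1060.5, 1079, 1448 and 1117 CPM in males and 542, 533, 376 and 512 CPM in females (log2 difference 1.26 ± 0.17, FDR 0.00328), and it lies in the same stretch of chromosome 7.

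Flavin monooxygenases, which oxidize nitrogen and sulfur of drugs and dietary amines, were mostly higher in females. Fmo2 was at 15.6, 10.2, 8.88 and 12.7 CPM in males and at 77.8, 66.2, 64.5 and 79.8 CPM in females (log2 difference -2.61 ± 0.19, FDR 7.28e-05). Fmo4 (-1.28, FDR 0.00186) and Fmo1 (-1.08, FDR 0.00303, -0.99 and no DEG without female NT-KO 2) moved with them, and Fmo5 was higher in males by the FDR alone (0.68, FDR 0.041). Hamp2, a relative of the iron hormone hepcidin, was at 11.8, 10.5, 9.49 and 6.23 CPM in males and at 376, 911, 441 and 565 CPM in females (log2 difference -5.93 ± 0.33, FDR 1.63e-05), whereas Hamp itself had a log2 difference of -0.41 (FDR 0.499). Nt5e, a 5'-nucleotidase that makes adenosine at the cell surface, was at 2.22 to 3.36 CPM in males and at 18.96 to 35.8 CPM in females. Among transporters, Slc22a26 (0.0573 to 1.44 CPM in males and 17.2 to 209 CPM in females) and Slc22a27 (-6.22, FDR 0.000963) were higher in females and Slc22a28 (1.33, FDR 0.00376) in males. Slco1a1, an uptake carrier of organic anions, had 875, 559, 812 and 1454 CPM in males and 379.8, 232, 421 and 723 CPM in females, with overlap between the sexes. Its call (1.11, FDR 0.0492) was lost without any one of 6 libraries, male NT-KO 1 and female NT-KO 2 being the exceptions, at log2 differences of 0.94 to 1.23. Of the female-higher non-coding genes, Gm6135 was at 0.764, 0.562, 0.815 and 1.49 CPM in males and at 33.1, 33.8, 35.9 and 31.5 CPM in females, and Gm42375 (-5.52, FDR 8e-05) and Gm29920 (2 counts in males, ratio 275 with an interval of 75.9 to 2278) lie among the Cyp2a and Cyp2b genes.

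Genes of fatty acid oxidation and ketogenesis, many of them known targets of the nuclear receptor PPAR alpha, were higher in females or did not pass. Of 30 genes tested 11 passed the FDR in females, 7 of them as DEGs, and none passed in males, against 3.43% of all genes in that direction, and the list median was -0.52. Cyp4a10, a fatty acid omega-hydroxylase, was at 4.47, 3.48, 23.5 and 7.72 CPM in males and at 474, 418, 339.6 and 293 CPM in females (log2 difference -5.55 ± 0.62, FDR 0.00102). Cyp4a14 was at 0.535, 0.843, 6.04 and 1.59 CPM in males and at 350.0, 353, 126 and 207 CPM in females (log2 difference -7.05 ± 0.86, FDR 0.00172). In both genes male NT-KO 1 was the highest male library and lay far below the lowest female library. The acyl-CoA thioesterases Acot1 (-1.86, FDR 0.0149), Acot2 (-2.67, FDR 0.000829), Acot3 (-5.82, FDR 0.00176) and Acot4 (-2.16, FDR 0.00523) and the pantetheinase Vnn1 (-3.05, FDR 0.001) were the other DEGs. The mitochondrial genes Acadl (-0.58), Hadh (-0.59), Bdh1 (-0.86) and Slc25a20 (-0.42) passed the FDR with differences below 2-fold. Cpt1a, the entry step of mitochondrial oxidation, had -0.23 (FDR 0.334) and Ppara itself 0.04 (FDR 0.936). Cyp4a10 and Cyp4a14 also stand on the list of female-biased genes, as do Acot3 and Acot4.

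Smaller groups of conjugating and transporting genes went both ways. Of 20 glutathione transferases 2, the pi class genes above, were DEGs in males and 2 in females, where 4 passed by the FDR alone. The female-higher DEGs were Gstt3 (29.3 ± 7.86 CPM in males, 149.7 ± 44.1 CPM in females) and Gstt2 (-1.15, FDR 0.032), which was no DEG without any one of male WT 1, male WT 2, male NT-KO 2, female WT 1, female WT 2 and female NT-KO 2 (-1.18 to -0.995). Of 19 glucuronosyltransferases 2 passed in males, Ugt2b1 (945 ± 246 CPM in males, 308 ± 44.9 CPM in females) and Ugt2b35 (1.06, FDR 0.0132, no DEG without male WT 1 or female WT 1, at 0.92 and 0.93), and none in females. Of 14 carboxylesterases, which cleave esters of drugs and lipids, Ces3a (3062 ± 580.0 CPM in males, 1164 ± 77.9 CPM in females) and Ces4a (2.37, FDR 0.0489) were higher in males and Ces1g (-1.15, FDR 0.0156) in females. The call of Ces4a was lost without any library but male NT-KO 2 and female NT-KO 1 (1.97 to 2.32), and that of Ces1g without male WT 1, male WT 2 or female WT 2 (-1.06 to -0.95). Aldh3a2, a fatty aldehyde dehydrogenase, was at 157, 121, 208 and 285 CPM in males and at 414, 527, 437 and 595 CPM in females (log2 difference -1.41 ± 0.21, FDR 0.00516), so that every female library was above every male library. Apoa4, an apolipoprotein of triglyceride-rich particles, was at 63.1, 58.6, 86.9 and 142 CPM in males and at 166, 154, 327 and 189 CPM in females (log2 difference -1.28 ± 0.21, FDR 0.00778), and 60.9% of its stretches occur in another gene. Serpina12, vaspin, was at 148 ± 27.8 CPM in males and 27.3 ± 10.6 CPM in females (log2 difference 2.49 ± 0.26, FDR 0.000689).

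Summed over whole families, the levels of 9 of 22 families did not overlap between the sexes (exact permutation test, two-sided, p = 0.0286 each, the smallest that 4 against 4 libraries allow, 0.0698 after Benjamini-Hochberg adjustment over the 22). The families were chosen with earlier results of these data known. Their p-values are therefore descriptive and no independent evidence. Male-higher were Mup (55832 ± 17279 CPM in males and 6829.5 ± 997 CPM in females), Serpina (47057 ± 6976 CPM in males and 23229 ± 2238 CPM in females), Cyp2d (3559.7 ± 488 CPM in males and 2114 ± 89.8 CPM in females), Ugt (4406 ± 331 CPM in males and 3092 ± 606 CPM in females), Hsd3b (446 ± 72.3 CPM in males and 173 ± 27.6 CPM in females) and Akr1c (2482 ± 332 CPM in males and 1773 ± 252 CPM in females). Female-higher were the Cyp2a, Cyp2b and Cyp2g genes (1232 ± 232 CPM in males and 4677 ± 225 CPM in females), Cyp3a (2378 ± 369 CPM in males and 3808 ± 377 CPM in females) and Acot (240.0 ± 43.3 CPM in males and 579 ± 74.9 CPM in females). The ratio of the means was 8.18 for Mup and 2.03 for Serpina in favour of males, and 3.80 for the Cyp2a, Cyp2b and Cyp2g genes and 2.41 for Acot in favour of females. The Sult family shows how a sum can hide its members, since 11 of 15 were higher in females but the sum was 1551 ± 184 CPM in males and 2055 ± 466 CPM in females (exact p = 0.0857, adjusted 0.145). The male-higher Sult2a8 is part of that sum. As shares of all counts without TMM, Ugt (0.379 to 0.449% in males, 0.255 to 0.398% in females) and Akr1c (0.200 to 0.281% and 0.159 to 0.213%) overlapped. The sums of Apo, Slc22a and Cyp2j differed by less than their spread (exact p = 0.514, 0.657 and 0.686).

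**Figure D3:**
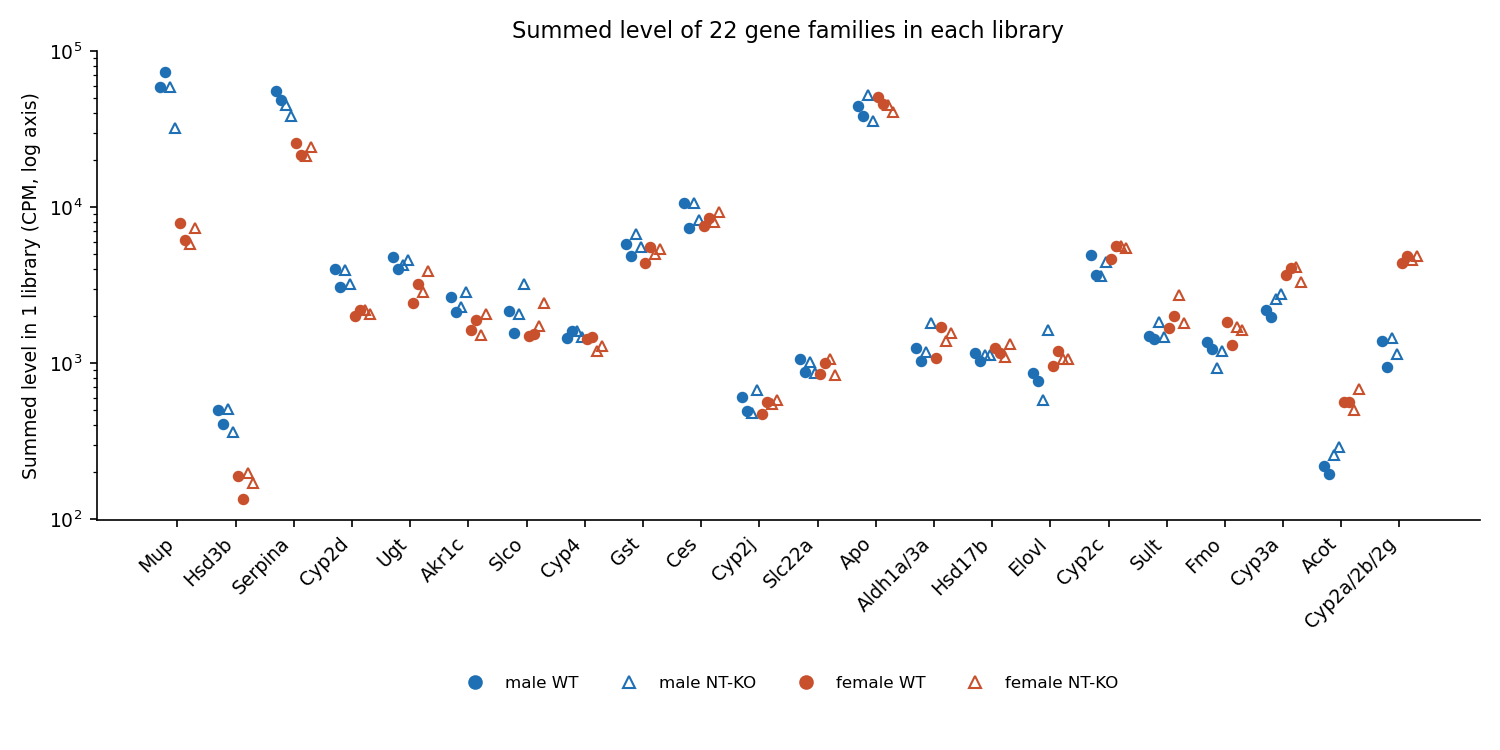
Summed level (CPM, log axis) of 22 gene families in each of the 8 libraries, ordered by the ratio of the male to the female mean; blue marks male and red female livers, filled circles WT and open triangles NT-KO. Mup at the left and the Cyp2a, Cyp2b and Cyp2g genes at the right show the widest gaps between the sexes, and the families from Slco to Fmo in that order overlap between the sexes.

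Many DEGs lay side by side on the chromosome. Of the 475 DEGs 134 (28.2%) had an adjacent tested gene that was a DEG of the same direction and 29 had an adjacent DEG of the other direction, and 5.85% of the genes that were no DEG had an adjacent DEG. There were 11 stretches with at least 5 DEGs no further than 500000 bases apart, and they held 90 DEGs. Each stretch begins and ends with a DEG by definition, so tested genes beyond its ends are not counted. The Mup stretch (chr4:59956804-62150863, GRCm38) held 24 male-higher and 2 female-higher DEGs, both of the latter pseudogenes (Mup-ps12 and Mup-ps14), among 41 tested genes. The Cyp2a, Cyp2b and Cyp2g stretch (chr7:25897620-26952346) held 10 female-higher DEGs among 11 tested genes. Between these bounds every tested gene was a female-higher DEG in the Cyp3a stretch (chr5:145436309-145805874) and in the Acot stretch (chr12:83987861-84060402), each with 5 genes. Of the whole families, 4 of 8 Cyp3a and 4 of 10 Acot genes tested were female-higher DEGs. Both directions occurred in the Sult2a stretch (chr7:13623967-15087026), with 3 male-higher and 8 female-higher DEGs, and in the Cyp2c stretch (chr19:39229254-40012243), with 2 and 5. By chromosome the share of DEGs ran from 6.82% on chromosome 4, 5.46% on 19 and 5.18% on 7 down to 1.72% on 16. Members of a family share sequence, so neighbouring counts are not independent of each other.

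The genes of growth hormone and prolactin signalling were mostly not past the test. Of 17 tested, 1 passed the FDR in males and 2 in females, and the median log2 difference was -0.17. Prlr, the prolactin receptor, was at 35.5, 35.8, 81.8 and 98.6 CPM in males and at 338, 320.5, 383 and 339 CPM in females (log2 difference -2.60 ± 0.25, FDR 0.000412). Within males the NT-KO libraries lay above the WT libraries, and every female library lay above both. The growth hormone receptor Ghr was at 613, 555, 668 and 603 CPM in males and at 453, 481, 431 and 510.1 CPM in females without overlap, but did not pass the FDR (log2 difference 0.38 ± 0.12, FDR 0.0996, and 0.24 with library size only). The signal transducers Jak2 (0.10, FDR 0.619), Stat5b (-0.13, FDR 0.559) and Stat5a (-0.34, FDR 0.123) did not pass, and Stat3 did, with a difference below 2-fold (0.67, FDR 0.0357). The feedback inhibitors Cish and Socs2, which STAT5 is known to induce, varied within each sex more than between the sexes: Cish was at 86.6, 12.2, 14.8 and 7.1 CPM in males and at 28.5, 16.9, 32.6 and 7.93 CPM in females, and Socs2 at 61.9, 7.79, 32.3 and 12.4 CPM in males and at 58.3, 24.99, 37.7 and 21.4 CPM in females. Socs3 (1.15, FDR 0.16) and Ptpn11 (0.29, FDR 0.236) did not pass. Of the secreted targets, Igf1 was at 735 ± 74.4 CPM in males and 851 ± 136 CPM in females (log2 difference -0.21 ± 0.15, FDR 0.415), and Igfbp3, a carrier of Igf1, was higher in females at 16.5, 13.2, 14.1 and 13.8 CPM in males against 30.7, 31.5, 41.3 and 27.2 CPM (log2 difference -1.18 ± 0.15, FDR 0.00225). Igfals (-0.52, FDR 0.202) and Igfbp1, Igfbp2 and Igfbp4 (-0.95, 0.30 and -0.17) did not pass. The direction of Jak2, Igfbp2, Socs2 and Cish changed under some scalings or without single libraries.

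Among 29 regulators linked to the sex-dependent liver 2 passed the FDR in males and 3 in females. Cux2, a homeobox repressor known to be female-specific in liver, was at 0.268, 0.485, 0.683 and 0.371 CPM in males and at 108, 41.6, 67.6 and 58.4 CPM in females (log2 difference -7.26 ± 0.41, FDR 2e-05). Tox, a high mobility group factor, was at 1.47, 1.1, 2.47 and 2.72 CPM in males and at 16.5, 9.29, 10.8 and 13.5 CPM in females (log2 difference -2.75 ± 0.29, FDR 0.00071). Trim24, a nuclear receptor cofactor, was at 31.02 ± 6.16 CPM in males and 62.2 ± 9.64 CPM in females (log2 difference -1.01 ± 0.17, FDR 0.00921), and fell under the required fold without male WT 1, male NT-KO 1, female WT 1 or female NT-KO 2, at -0.99 to -0.88. Foxa3, a forkhead factor, was at 94.8, 104, 64.4 and 55.3 CPM in males and at 37.9, 21.1, 18.7 and 21.5 CPM in females (log2 difference 1.66 ± 0.18, FDR 0.000857), and Zbtb20, a zinc finger repressor, passed the FDR in males (0.84, FDR 0.0171). Bcl6, the male-biased repressor of STAT5 targets, was at 56.1, 52.3, 27.2 and 32.9 CPM in males and at 12.8, 10.1, 8.12 and 40.9 CPM in females, and did not pass (log2 difference 1.26 ± 0.54, FDR 0.183). Its female NT-KO 2 library lay above both male NT-KO libraries, and the other 3 female libraries lay below every male library. Hnf4a, the hepatocyte nuclear factor whose motif is shown above, was at 569, 585, 541 and 461 CPM in males and at 433, 426, 418 and 426 CPM in females without overlap (log2 difference 0.34 ± 0.12, FDR 0.122, and 0.20 with library size only). Neither the estrogen receptor Esr1 (-0.47, FDR 0.0899) nor the xenobiotic receptors Nr1i2 (-0.38, FDR 0.13) and Nr1i3 (-0.97, FDR 0.104) passed, and the androgen receptor is X-linked and not a member. Cebpa, Foxa2, Onecut1, Onecut2, Ezh1 and Ppara had log2 differences of 0.11, -0.01, 0.51, 0.04, -0.05 and 0.04, signs that other settings reversed.

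Lists of genes with a known sex bias in mouse liver were counted as a check of the whole. They were compiled with earlier results of these data in view, so their counts are no independent evidence. Of 45 male-biased genes tested 33 were DEGs in males and 1, Dct, was a DEG in females (log2 difference -1.75 ± 0.28, FDR 0.00663), with a list median of 3.55. Of 59 female-biased genes tested 49 were DEGs in females and 1, Cyp2c67, in males, with a median of -4.52. Male-biased genes that did not pass included Cyp2c54 (-0.52), Sult5a1 (-0.16) and Bcl6, and female-biased ones included Cyp17a1 (-3.84, FDR 0.0909), Cyp2c39 (-4.64, FDR 0.0961) and Aldh1a1 (0.19). Cyp2c39 was at 0.439 to 30.6 CPM in males and at 12.5 to 757 CPM in females.

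**Figure D4:**
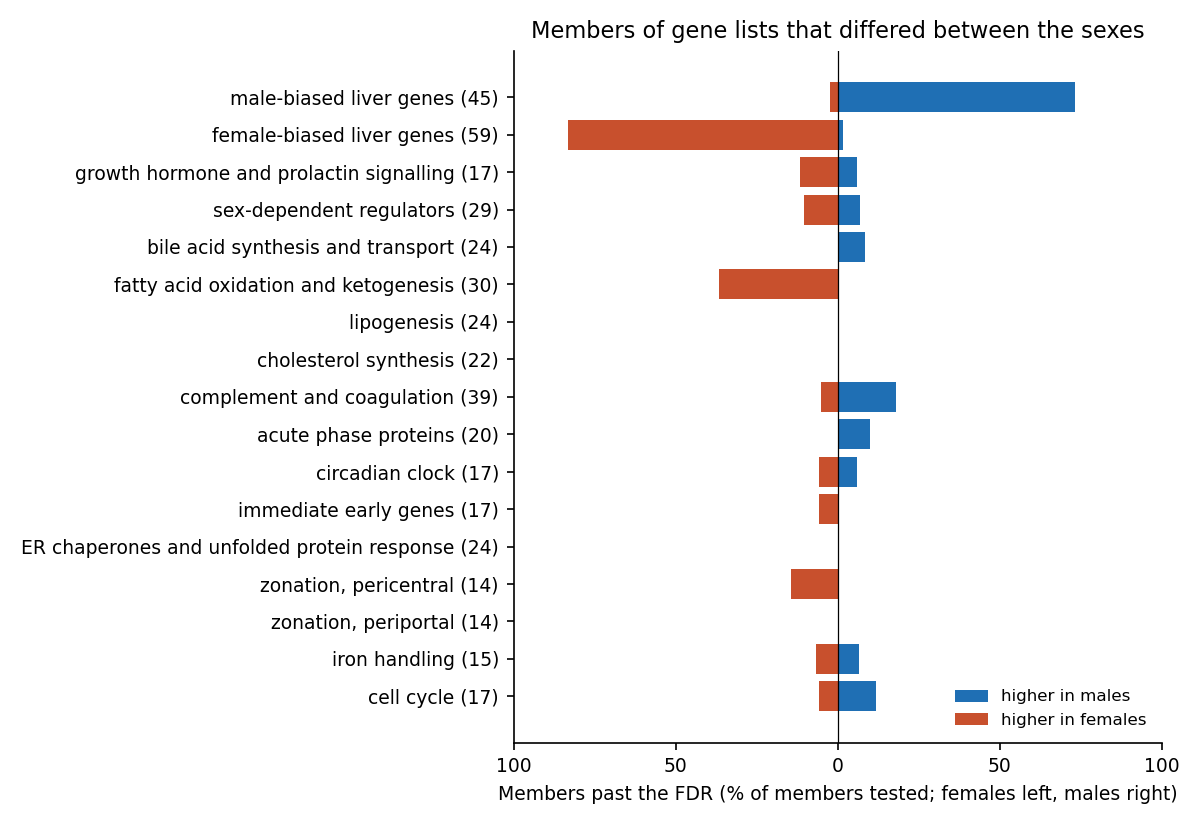
Share of the tested members of 17 gene lists (number tested in brackets) that passed the FDR, with female-higher members drawn to the left in red and male-higher members to the right in blue. The male-biased and female-biased lists stand apart with 33 of 45 and 49 of 59 members, followed by fatty acid oxidation with 11 of 30 in females; the background over all autosomal genes is 3.08% in males and 3.43% in females.

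Other metabolic lists held few or no members past the FDR. None of 24 lipogenesis genes and none of 22 cholesterol synthesis genes passed, with medians of -0.18 and -0.38. Of 28 zonation genes Cyp2a5 and Lect2 (-0.70), both pericentral, passed in females and no periportal gene did. Of 17 clock genes Clock (0.90) and Per3 (-0.82) passed, and of 17 immediate early genes Zfp36 (-0.89). Of 20 acute phase genes Hp, haptoglobin, and Serpina3k were DEGs in males, the latter lost without male WT 1, male WT 2, male NT-KO 2, female WT 2 or female NT-KO 2 (0.92 to 1.18). Hp was at 3529, 7305, 3175 and 3607 CPM in males and at 1980.3, 1704, 2039.8 and 988 CPM in females (log2 difference 1.36 ± 0.29, FDR 0.026), and its call was lost without male WT 2 (1.07), male NT-KO 2, female WT 1, female WT 2 or female NT-KO 2 (1.22 to 1.36). Male WT 2 stood apart on this list and on that of ER chaperones and the unfolded protein response. On the former its mean log2 level relative to all libraries was 1.44 and that of the other 7 libraries was -0.44 to 0.35. On the latter it was 1.498 against -0.39 to 0.34. All 24 ER chaperone genes had a log2 difference above 0 (median 0.53), but none passed the FDR, and the median from log2 CPM fell from 0.51 to 0.21 without male WT 2.

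Markers of other cells of the liver differed between the sexes as well, in both directions. In bulk tissue fewer cells of a type and less RNA per cell cannot be told apart. Sums below, and the levels of Alas2, Ighm, Jchain, Cd3e and Cd3d, are in CPM of the library totals with TMM factors. Those of Cd4 and Cela1 are in CPM of the counts in tested genes and so stand slightly higher. Markers of Kupffer cells (Clec4f, Vsig4, Cd5l, Timd4, Adgre1) summed to 124 to 221 CPM in males and 231 to 275 CPM in females, and those of sinusoidal endothelium (Stab2, Lyve1, Clec4g, Pecam1) to 77.0 to 111 CPM and 120 to 134 CPM, with no tested member past the FDR in either list. Vsig4 is part of the sum but not among the autosomal genes tested. Markers of erythroid cells (Hba-a1, Hbb-bs, Alas2) summed to 322 to 801 CPM in males and 138 to 259 CPM in females; the X-linked Alas2 alone was at 168, 93.3, 90.5 and 127 CPM in males and at 8.65, 15.2, 13.8 and 13.5 CPM in females. Markers of B lymphocytes summed to 5.58 to 57.4 CPM in males, the highest being male NT-KO 2 with 48.1 CPM of Ighm, and to 8.80 to 23.1 CPM in females. Of these 6 markers 3 were DEGs in females and none in males, with log2 differences from -1.82 to 1.38. Cd79a (-1.60, FDR 0.0376) and Cd79b (-1.82, FDR 0.0234) were among the female-higher ones. Both calls were lost without any one of male WT 1, male WT 2, female WT 1, female WT 2 and female NT-KO 2, at -1.78 to -1.31. Jchain, at 0.585, 1.79, 5.79 and 6.28 CPM in males and 1.58, 1.08, 0.805 and 0.855 CPM in females, did not pass the FDR. Cd4 was higher in males (2.11 ± 0.286 CPM against 0.655 ± 0.204 CPM), whereas the CD3 chains of T lymphocytes Cd3e (0.0887, 0.212, 0.102 and 0.172 CPM in males, 0.769, 0.414, 0.245 and 0.336 CPM in females) and Cd3d (0.16, 0.141, 0.163 and 0.248 CPM in males, 0.769, 0.621, 0.49 and 0.473 CPM in females), too low to be tested, were higher in every female than in every male library. The 4 markers of T lymphocytes summed to 2.14 to 2.75 CPM in males and 1.42 to 2.66 CPM in females. Sox9 (1.18, FDR 0.0469) and Epcam (-1.11, FDR 0.0472), both markers of cholangiocytes, went in opposite directions, each losing its call without most single libraries (0.97 to 1.29 and -1.19 to -0.97), and the 4 markers of that list summed to 4.12 to 7.29 CPM in males and 4.60 to 6.39 CPM in females. Cela1 was at 41.7, 30.4, 37.1 and 40.3 CPM in males and 22.7, 16.8, 14.9 and 19.5 CPM in females (log2 difference 1.02 ± 0.16, FDR 0.00689; no DEG without male WT 1, male NT-KO 2, female WT 2 or female NT-KO 1, at 0.92 to 0.97), although the other pancreas markers Prss1, Cpa1 and Pnlip had at most 3 counts in every library. Adipocyte markers summed to 0.0204 to 0.611 CPM in males and 0 to 1.23 CPM in females, those of neutrophils to 1.79 to 7.01 and 1.16 to 2.98 CPM with Ly6g at or under 3 counts throughout, and those of stellate cells to 55.3 to 76.8 and 66.5 to 75.1 CPM. The part of these cells in the sex differences reported was not tested.

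Sex differences were then taken within each genotype. The WT and the NT-KO difference compare separate libraries, but both came from 1 fit with the spread shared over the 4 groups. Calls in WT and in NT-KO are therefore not independent of each other. In WT livers 268 autosomal genes were DEGs in males (2.11%) and 326 in females (2.57%). In NT-KO livers 117 were DEGs in males (0.921%) and 107 in females (0.842%). Of the 268 WT genes of males 241 had the same direction in NT-KO and 88 (32.8%) were DEGs there, and of the 326 of females 301 had the same direction and 93 (28.5%) were DEGs. Seen from NT-KO, 88 of 117 (75.2%) and 93 of 107 (86.9%) were DEGs in WT. Called in both genotypes were 181 genes in the same direction and 1 in opposite directions. The median difference of the male-higher WT genes was 1.81 in WT and 1.06 in NT-KO and that of the female-higher WT genes -1.56 and -0.79, where the WT values are those that chose the genes. Chosen in NT-KO instead, the male-higher genes had a median of 2.88 in NT-KO and 2.19 in WT, and the female-higher genes -2.82 and -3.12. With 2 libraries a group these counts lean on single libraries: without female WT 1 or female WT 2 the WT counts fell to 92 and 74 in males and 114 and 98 in females, without male WT 1 or male WT 2 to 146 and 116 in females, without male WT 2 to 163 in males, and without female NT-KO 1 or female NT-KO 2 to 201 and 202 in females. The NT-KO counts fell to 43 and 49 in males and to 62 and 71 in females without female NT-KO 1 or female NT-KO 2, and to 66 in females without male NT-KO 1.

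The difference between the genotypes was tested by the interaction of sex and genotype, which 2 genes passed (0.0157%); 924 genes (7.27%) had an unadjusted p under 0.05, and the likelihood ratio test and DESeq2 called 42 and 58. Ccr3, a receptor for eotaxins known from eosinophils, was at 4.36, 3.22, 0.0881 and 0.0413 CPM in males and at 0.356, 0.255, 4.94 and 3.94 CPM in females. It was thus higher in WT males and in NT-KO females (log2 difference 3.64 in WT and -6.06 in NT-KO, interaction FDR 0.0014), and the 2 male NT-KO libraries held 4 and 2 counts. Gstp3, another gene of the pi class, was at 18.1, 11.8, 714 and 445 CPM in males and at 28.5, 29.3, 27 and 24.7 CPM in females (-0.95 in WT and 4.49 in NT-KO, interaction FDR 0.00543). The male NT-KO libraries alone stood high, and without female NT-KO 1 the interaction FDR was 0.134 with a log2 interaction of 5.504, against 5.44 with all libraries. Next in rank, and not past the FDR, were Ppp1r9a (interaction FDR 0.241), also highest in both male NT-KO libraries, Mug2 and 1500015A07Rik. Mug2, a murinoglobulin protease inhibitor, was at 31.2, 33.3, 109.7 and 49.8 CPM in males and at 268, 273, 83.9 and 54.7 CPM in females, with both female WT libraries above all others.
For the genes with the strongest sex bias the difference between genotypes did not pass: Cyp2d9 had 5.43 in WT and 6.14 in NT-KO (interaction FDR 0.724), Mup20 7.31 and 7.19 (0.968), Cyp2a4 -5.62 and -5.28 (0.868), and Prlr -3.21 and -2.0 (0.573). Acot3 had -7.39 in WT and -4.45 in NT-KO and Cyp4a14 -9.01 and -5.45 (interaction FDR 0.573 and 0.573).

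**Figure D5:**
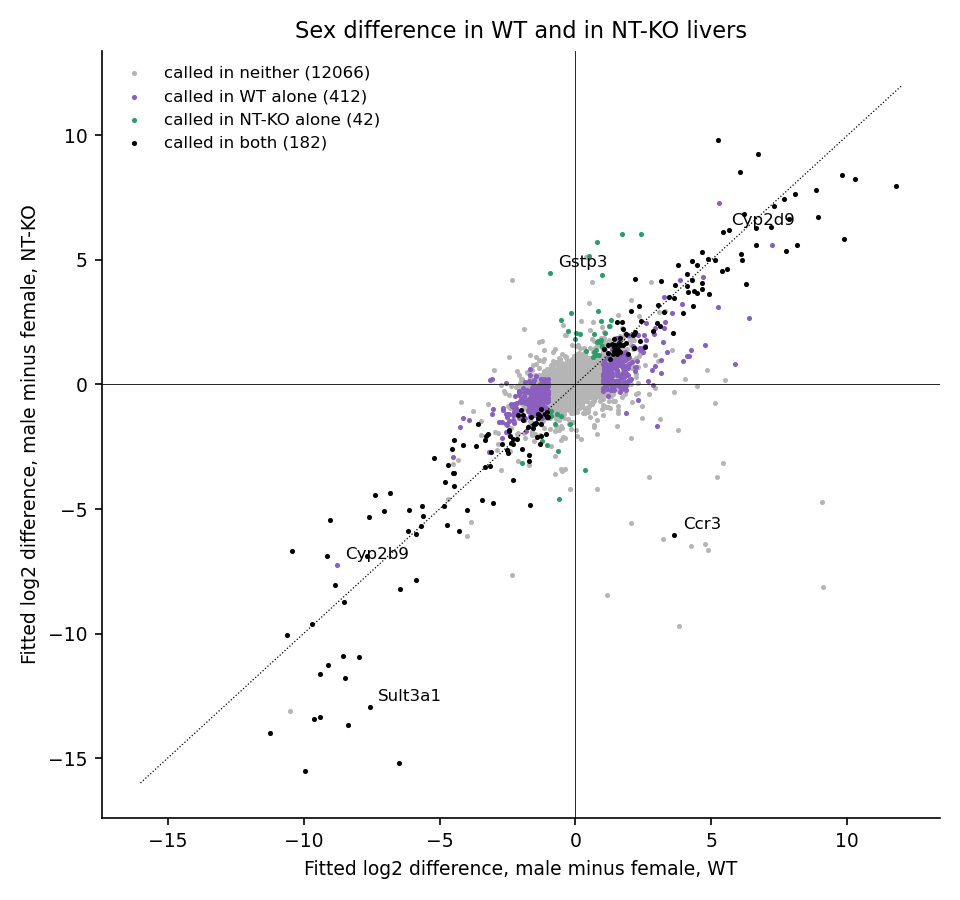
Fitted log2 sex difference (male minus female) of each autosomal gene in WT livers (x axis) and in NT-KO livers (y axis), coloured by the genotype in which it was a DEG; the dotted line marks equal differences. The 182 genes called in both lie in 2 opposite quadrants apart from Ccr3, some of them, such as Sult3a1, well off the dotted line, and Gstp3 lies high on the y axis alone; values beyond 12 in size come from genes at or near 0 in one group and depend on the prior count.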

How the data were processed

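Livers of post weaning mice (C57BL/6 in the labels, C57BL/6N in the study's methods) were profiled by RNA-seq in 8 libraries (TruSeq RNA kit from total RNA). The authors trimmed reads with cutadapt, aligned them with STAR 2.6.1a to GRCm38 and counted them per gene with featureCounts on the Ensembl release 88 annotation. Strand setting and treatment of reads with several matches are not given in the sources used here. A gene and its antisense partner may therefore not have been told apart. The deposited table holds raw counts per gene, with 1 column a library. Groups were taken from the labels. No 2 libraries had counts within sampling noise of each other (chi-square per degree of freedom 72.5 to 770).

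Positions and biotypes came from the annotation on GRCm38 for 49412 of 49671 IDs. Counts were tested as deposited with edgeR 4.0.16 (R 4.3.3): genes reaching 1 CPM in 2 or more libraries, TMM factors, a design of genotype and sex, the F-test of the quasi-likelihood fit, with p adjusted after Benjamini and Hochberg over all 13117 genes, autosomal or not. The study's own test was the likelihood ratio test of edgeR, used here as an alternative, as was DESeq2 1.42.0. A gene with an FDR up to 0.05 and a log2 difference over 1 in size was called a DEG. Differences within WT and NT-KO and the interaction came from a model with a mean for each of the 4 groups. The standard error is the log2 difference divided by the square root of F. The common biological coefficient of variation was 0.228. CPM use TMM factors unless stated. Levels of single genes are in CPM of the counts in tested genes unless stated, whereas sums over families and markers are in CPM of all counts. Other alternatives were library size only, RLE size factors, filterByExpr, no filter, no genotype term, 4 group means, the replicate number as a block, robust dispersion, autosomal genes alone, other thresholds, prior counts and leaving out each library. Family sums were compared by exact permutation of libraries, two-sided (SciPy 1.17.1). The fit of the sex difference was tested on simulated counts with changes between the sexes. These counts held no difference between genotypes, so the interaction was not tested in this way.

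Genes were named by rule: the markers, the 10 protein-coding and 3 non-coding genes with the smallest FDR in each direction without overlap of the sexes, up to 5 called members a direction of each gene list, all members of the hormone and regulator lists, the extremes of each family and the 5 genes first in rank for the interaction; other list members are named as examples, chosen after their values were seen, and 3 genes that the rule named are not reported here. The members and lists were chosen with earlier results of these data known. Shared sequence is the share of the 50-base stretches of a gene's exons found in another gene. Precision is set by 2 libraries a group; intervals cover counting error only.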

Additional observations from a re-analysis of the deposited data

Results flagged for a closer look

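In each sex, the highest or lowest of 4 libraries was set against the gap to its neighbour by Dixon's criterion, which marks about 1 in 20 groups by chance. It marked 26 of 304 groups of named genes (8.55%). The gaps were taken on log2 CPM, whereas the values below are in CPM. Each group pools WT and NT-KO libraries, so the share marked by chance is a rough guide only. Male NT-KO 1 was the lowest male library for Lama3 (10.7), Nat8f5 (16.2), Scp2 (3150) and Ccnd1 (9.98) and the highest for Nr1i3 (156) and Sult2a8 (1450). Male NT-KO 2 was the lowest for Dct (5.10), Cyp2c67 (199), Cyp3a16 (0.351) and Gstp1 (618) and the highest for Gm29920 (0.0413). Male WT 2 was the highest for Hp (7300) and for the sulfotransferases Sult2a1 (0.613), Sult2a2 (0.281), Sult2a4 (0.0511), Sult2a5 (0.0511) and Sult2a6 (0.102), and the lowest for Gstt3 (17.5). Male WT 1 was the highest for Zfp809 (64.4) and Fmo1 (263) and the lowest for Ahr (25.1). Among females, female NT-KO 1 was the highest for C4a (57.7) and Slc22a7 (61.7) and the lowest for Ahr (33.8) and Sult2a8 (376), and female WT 2 was the lowest for Cyp2g1 (12.8).

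The sex difference of 2 genes differed between WT and NT-KO by the interaction of edgeR's quasi-likelihood test. The log2 interaction (sex difference in NT-KO minus that in WT) was -9.70 for Ccr3, with an FDR of 0.0014 (0.00469 to 0.0187 without single libraries), and 5.44 for Gstp3, with an FDR of 0.00543 (0.00808 to 0.134). The Gstp3 call was lost without female NT-KO 1, where the log2 interaction was 5.504.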

How the results depend on the processing

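The counts of DEGs moved with the filter, the thresholds and, within a genotype, with the test and with single libraries. Without a filter on low counts there were 504 male-higher and 658 female-higher DEGs and 519 interaction genes, of which 718 of 1162 and 416 of 519 lay among the genes of the main test. At an FDR of at most 0.01 there were 139 and 149, and with no minimum fold 391 and 436. The likelihood ratio test and DESeq2 gave 410 and 410 DEGs in WT males, 594 and 543 in WT females, 198 and 192 in NT-KO males, 197 and 193 in NT-KO females, and 42 and 58 interaction genes, against 268, 326, 117, 107 and 2. All 475 DEGs of the main test were called by both, 449 were called with library size only and 327 to 442 without single libraries. Leaving out single libraries gave 162 to 250 male-higher and 177 to 336 female-higher DEGs, 74 to 291 and 98 to 416 in WT, 43 to 117 and 62 to 107 in NT-KO, and 1 to 5 interaction genes. Of 107 named DEGs 85 kept the call under every alternative fit at the main thresholds, 22 lost it under at least 1, and none changed direction. The FDR of at most 0.01 was applied to the counts of DEGs only. Named DEGs with a larger FDR do not pass it.

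The direction of small differences that did not pass was not stable. With library size only the log2 difference was -0.0292 for Jak2, -0.0188 for Cish, -0.0262 for Cebpa, -0.0937 for Onecut2, -0.0423 for Cebpb, -0.0843 for Ppara and -0.00339 for 1500015A07Rik. Foxa2 was at 0.00703 with filterByExpr and at 0.0245 without the genotype term. Without single libraries Igfbp2 ran from -0.10 to 0.68, Socs2 from -1.12 to 0.00427, Cish from -0.89 to 0.86, Onecut1 from -0.51 to 1.34, Ezh1 from -0.11 to 0.0119, Onecut2 from -0.00549 to 0.11, Cebpb from -0.44 to 0.53, Ppara from -0.21 to 0.27, Foxa2 from -0.32 to 0.35, Ccr3 from -2.95 to 1.63 and 1500015A07Rik from -0.12 to 0.37. The causes were not tested.

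The labels number the replicates 1 and 2 in each group. Deviations of same-numbered libraries from their group means had an r of -0.181 to 0.209 over the 6 pairs of groups. These values have no reference spread, so they cannot show whether same-numbered libraries share more than a number. With the replicate number as a block there were 207 male-higher and 241 female-higher DEGs, 230 and 273 in WT, 101 and 94 in NT-KO, and 2 interaction genes, and Cish was at -0.0167; Cd79a, Mcm10, Sox9, Epcam and Slco1a1 were no DEGs. With 2 libraries a group, differences within a genotype are the least certain values given here, and genes near 3 counts in one sex have no firm fold.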

Other observations

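Among the 255 female-higher DEGs, the male library with the highest level was male NT-KO 2 for 117 (45.9%), male NT-KO 1 for 63 (24.7%), male WT 2 for 44 (17.3%) and male WT 1 for 31 (12.2%). Over genes that were no DEG these shares were 23.4, 31.2, 25.1 and 20.4% in the order of male NT-KO 2, male NT-KO 1, male WT 2 and male WT 1. Among the 220 male-higher DEGs the female library with the highest level was female WT 1 for 77 (35.0%), female NT-KO 2 for 71 (32.3%), female NT-KO 1 for 45 (20.5%) and female WT 2 for 27 (12.3%), against 28.5, 30.4, 23.6 and 17.5% of the other genes.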
